A study of Komagataella phaffii GS115 with 2 samples.

Results

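The 10 glycolysis genes of Komagataella phaffii GS115 described here cover the route from glucose 6-phosphate to pyruvate, and they were taken from a table of 5040 genes by a list of locus tags. All 10 locus tags were found in the table. The gene names belong to that list. The deposited table and the RefSeq gene table give locus tags alone, so the names could not be checked against a product. K. phaffii, long known as Pichia pastoris, is a methylotrophic yeast used to produce recombinant proteins. The measurement was chromatin immunoprecipitation with sequencing (ChIP-seq) of H3K36me3, a trimethylated form of histone H3, in wild-type GS115 cells from shaken cultures. The labels describe 2 such libraries in 1 group, without a second genotype or treatment, and name no carbon source. The values form 1 column, deposited with replicate 1, so there is no replicate error, and no difference between genes below was tested.

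Glycolysis splits a hexose into a pair of trioses in its preparatory steps and recovers ATP and NADH from them in its payoff steps. Its enzymes are among the most abundant proteins of many yeasts. In budding yeast, H3K36me3 is placed by the methyltransferase Set2, which travels with elongating RNA polymerase II, so the mark is known for lying over the bodies of transcribed genes. RNA levels were not analysed here.

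Each of the 10 glycolysis genes lay in the upper quartile of the H3K36me3 ChIP signal, and the 10 values were close together. Signal was given as FPKM, a fragment count divided by the length of the gene and by a total. With RefSeq lengths, FPKM times length summed to 100.1% of the value expected if that total counted only fragments in the 5040 genes. The 10 genes had a median of 155 FPKM, against a median of 138 FPKM over all 5040 genes. They ran from 149 to 174 FPKM, whereas all genes ran from 20.3 to 363 FPKM with an upper quartile of 148 FPKM. The median of the 10 was 11.9% above the median of all genes, or 0.16 higher on the log2(FPKM + 1) scale.

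All 10 genes were above the median of all genes, as 50% of all genes are by construction, and all 10 were above the upper quartile, as 25% of all genes are. More than 10% above the median were 8 of the 10, against 16.2% of all genes, and none of the 10 was more than 10% below it, against 22.7% of all genes. More than 25% above the median was 1 of the 10, against 2.22% of all genes. At a threshold of 5%, all 10 were above, against 30.9% of all genes, and none was below, against 34.4%. At 25% none was below it either, a level under which 6.05% of the table lay. The range of the 10, from 149 to 174 FPKM, held 19.6% of all genes. The 10 genes made up 0.236% of the summed FPKM times length, against 0.21% of the summed gene length, a ratio of 1.13. Neither input nor H3 chromatin is named for these FPKM values, and neither entered the comparisons below. A gene's value can therefore also carry background fragments, nucleosome density and how well fragments map to it, and their part in these levels was not tested.

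**Figure D1:**
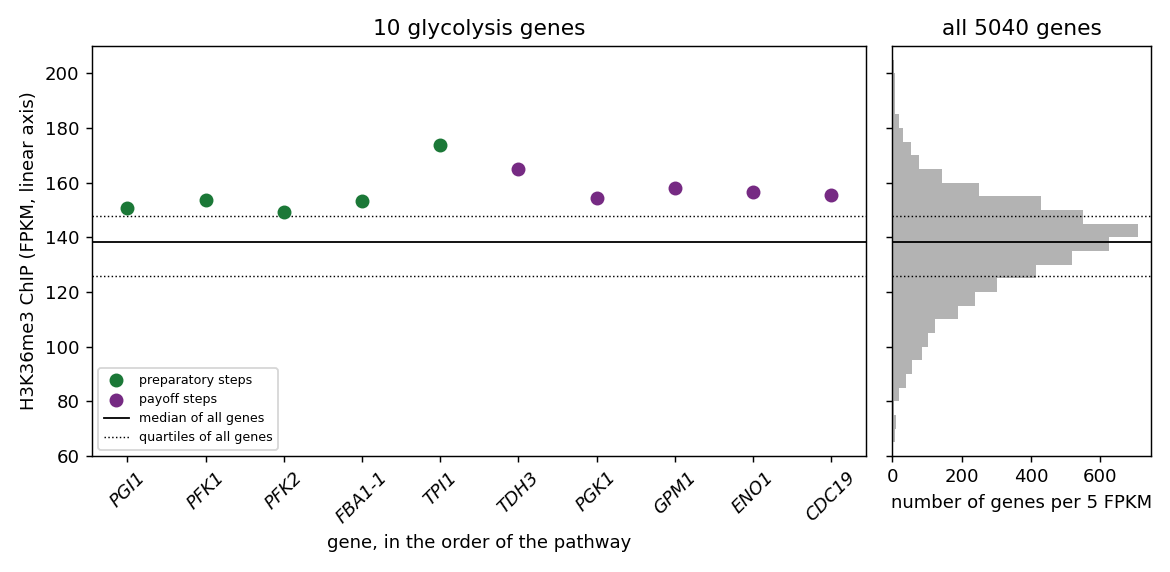
H3K36me3 ChIP signal (FPKM, linear axis) of the 10 glycolysis genes in pathway order (left; green, preparatory steps; purple, payoff steps) and its distribution over all genes in classes of 5 FPKM (right). The solid line is the median of all genes and the dotted lines are their quartiles; all 10 points lie above the upper dotted line at 148 FPKM, and 19 genes outside 60 to 210 FPKM are not drawn.

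In the preparatory steps, PGI1, FBA1-1 and both PFK genes lay within a narrow band, and TPI1 stood above them. PGI1 (PAS_chr3_0456), glucose-6-phosphate isomerase, had 151 FPKM, which was 8.84% above the median of all genes and higher than 80.7% of them. The next enzyme, 6-phosphofructokinase, commits the sugar to glycolysis and is built in budding yeast from alpha and beta subunits encoded by PFK1 and PFK2. PFK1 (PAS_chr2-1_0402) had 153.4 FPKM, higher than 85.7% of all genes. PFK2 (PAS_chr1-4_0047) had 149 FPKM, the lowest of the 10, and was still higher than 78.3% of all genes. These subunit genes lie on different chromosomes and had nearly the same signal.

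Downstream of phosphofructokinase, aldolase cleaves fructose 1,6-bisphosphate, and triose-phosphate isomerase interconverts the products. FBA1-1 (PAS_chr1-1_0072), an aldolase gene, had 153.4 FPKM, higher than 85.6% of all genes and almost the same value as PFK1. TPI1 (PAS_chr3_0951), the isomerase gene, had 174 FPKM, the highest of the 10. It was 25.5% above the median and higher than 97.9% of all genes, at place 106 from the top. With TPI1 left out, the highest of the other 9 genes was 1.10 times the lowest, and with it the ratio was 1.16.

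The payoff steps were all at or above 154 FPKM. TDH3 (PAS_chr2-1_0437), glyceraldehyde-3-phosphate dehydrogenase, is the gene whose GAP promoter drives constitutive expression in many K. phaffii vectors. It had 165 FPKM, the second highest of the 10 and higher than 95.5% of all genes. TDH3 and TPI1 were the 2 of the 10 above the 95th percentile of all genes, 164 FPKM, a level that 5% of all genes pass. TDH3 was only just past that level and TPI1 was well past it.

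The remaining payoff genes were tightly grouped. PGK1 (PAS_chr1-4_0292), phosphoglycerate kinase, which makes the first ATP of the pathway, had 154.4 FPKM. GPM1 (PAS_chr3_0826), phosphoglycerate mutase, had 158 FPKM. ENO1 (PAS_chr3_0082), enolase, and CDC19 (PAS_chr2-1_0769), pyruvate kinase, which makes the last ATP, had 157 and 155 FPKM. These genes were higher than between 87.1% and 91.2% of all genes. Without replicate error, the order of genes within this group, or between it and FBA1-1 or PFK1, could not be tested.

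The preparatory and payoff steps overlapped. The 5 preparatory genes had a median of 153 FPKM with a range of 149 to 174 FPKM, and the 5 payoff genes had a median of 157 FPKM with a range of 154 to 165 FPKM. Preparatory minus payoff was -0.031 on the log2 scale. Apart from TPI1, each preparatory gene was below each payoff gene, with 4 values of 149 to 153 FPKM. This exception was made after the data were examined, and the closest values were 153.4 FPKM (PFK1) and 154.4 FPKM (PGK1). Relative to genes of like length the split did not hold. FBA1-1 was 13.9% above their median, against 13.7% for ENO1, 12.4% for CDC19 and 12.2% for PGK1. The preparatory genes had a median length of 1683 nt, against 1251 nt for the payoff genes. The coefficient of variation was 4.62% over the 10 genes, against 14.5% over all genes and 12.7% over the 3498 genes in the same range of lengths.

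Against genes of their own length the glycolysis genes remained high. Their lengths in the RefSeq table ran from 747 nt (GPM1) to 2970 nt (PFK1), with a median of 1281 nt, against 1197.5 nt for all genes. Each was compared with the 200 genes nearest to it in length, and all 10 were above the median of those 200, as 50.1% of all genes were. All 10 were also above 3 in 4 of those genes, against 25% of all genes, and 5 were above 9 in 10 of them, against 10.2% of all genes. The excess over the median of the 200 was smallest for PFK2, 5.78%, and largest for TPI1, 28.3%. For GPM1, the shortest, it was 20.9%, and for TDH3 it was 19.3%. PFK1, the longest, was 7.16% above the median of its 200 and higher than 94% of them, and PFK2, the next longest, was higher than 82.5% of its own 200.

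Among the 10 genes, the shorter ones had the higher FPKM. The 3 shortest, GPM1, TPI1 and TDH3, were the 3 highest. Spearman's rho between FPKM and length over the 10 was -0.75, and it was -0.71 without PFK1 and PFK2, whose lengths are farthest from the median, and -0.68 without TPI1. Over the 3498 genes of 747 to 2970 nt the rho was 0.14. These are descriptions across genes of 1 set of values. Length also enters FPKM as its divisor, and the authors' own lengths were not known. The length was a multiple of 3 for 9 of the 10, against 92.2% of all genes, and PFK2, at 2827 nt, was the exception.

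**Figure D2:**
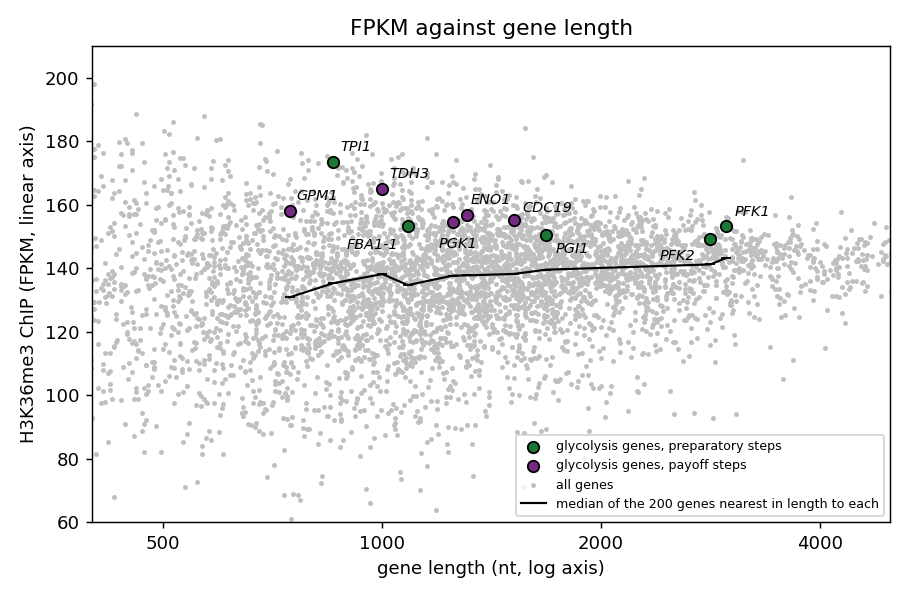
H3K36me3 ChIP signal (FPKM, linear axis) against gene length (nt, log axis) for the 10 glycolysis genes (green, preparatory steps; purple, payoff steps) and all genes (grey). The black line joins the medians of the 200 genes nearest in length to each of the 10; every glycolysis gene lies above it, by 5.78% (PFK2) to 28.3% (TPI1), and 374 genes outside 60 to 210 FPKM or 400 to 5000 nt are not drawn.

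The glycolysis genes were scattered over the genome rather than grouped. Chromosome 3 held 4 of them, chromosomes 1 and 2 held 3 each, and none was on chromosome 4, which has 971 genes. All 10 were above the upper quartile of their own chromosome, which was 148.2 FPKM on chromosome 1, 146 FPKM on chromosome 2 and 148.0 FPKM on chromosome 3. The gene nearest to a chromosome end was ENO1, with 79 genes between it and the end. No 2 of the 10 were adjacent or shared a neighbour, and their neighbours were 20 different genes.

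The genes next to the glycolysis genes mostly had lower signal. The 20 adjacent genes had a median of 129 FPKM, below the glycolysis genes' median of 155 FPKM, and ran from 71.0 to 186 FPKM. The 16 adjacent genes of at least 500 nt had a median of 139 FPKM, close to that of all genes, and the 4 shorter ones had 95.1 FPKM. Of these 20, 10 lay below the lower quartile of all genes, 126 FPKM, and 3 lay above the upper quartile. For comparison, over the 989 genes with signal in the range of the 10 glycolysis genes, the neighbours had a median of 141 FPKM. Of those neighbours, 20.0% lay below the lower quartile and 34.4% above the upper quartile. The median difference between a glycolysis gene and the mean of its neighbours was 0.41 on the log2 scale, a ratio of 1.33, against 0.014 over all genes. That median was not computed for the 989 genes, so the difference cannot be set apart from the level itself.

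Higher than both neighbours were 8 of the 10 glycolysis genes, against 31.8% of all genes. Most genes with equally high signal are local peaks too: among the 989 genes in the same FPKM range the share was 69.4%, so a count of 8 of 10 is near what that level alone gives. More than 10% above the mean of their neighbours were 7 of the 10, against 26.2% of all genes and 57.8% of the genes in that range. More than 25% above the mean of their neighbours were 6 of the 10, against 6.59% of all genes and 15.5% of the genes in that range. These 6 were PGI1, PFK1, PFK2, TDH3, PGK1 and GPM1.

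The step was smaller against longer neighbours. Of the 20 adjacent genes 4 were under 500 nt, as were 527 of all 5040 genes. All 4 were below the lower quartile. Of all genes under 500 nt, 35.1% lay below it and 35.5% lay above the upper quartile. Of the 16 longer neighbours, 6 (37.5%) also lay below the lower quartile. Among neighbours of any length of the 989 genes in the same FPKM range, the share was 20.0%. The 4 short neighbours lay beside PGI1, PFK1, PGK1 and GPM1. When the nearest genes of at least 500 nt were used in their place, the median difference was 0.18 on the log2 scale and 2 of the 10 stayed more than 25% above them, against 6.53% of all genes and 15.2% of the genes in that range. Those 2 were PFK2 and TDH3. The low gene before PFK2 has 537 nt, so it stayed a neighbour only because it is just past the cut of 500 nt.

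TDH3 and PFK2 lay above their neighbours in different ways. TDH3 had 165 FPKM, and the genes before and after it, PAS_chr2-1_0436 (1887 nt) and PAS_chr2-1_0439 (2394 nt), had 113 and 124 FPKM. Both neighbours of TDH3 are longer than TDH3 and both were below the lower quartile. TDH3 was the highest of the 11 genes of its stretch, in which the other 10 had at most 144 FPKM. Its difference from its neighbours, 0.47 on the log2 scale, was higher than that of 98.2% of all genes.

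PFK2 had 149 FPKM, against 71.0 FPKM in PAS_chr1-4_0046 (537 nt) before it and 118 FPKM in PAS_chr1-4_0048 (777 nt) after it. Its difference from them, 0.70 on the log2 scale, was the largest of the 10. The gene before it was the lowest of the 20 neighbours. In the wider stretch PFK2 was only the fourth of 11 genes, with a gene 5 places before it at 168 FPKM.

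The other steep differences each had a low short gene on one side. PGK1 had 154.4 FPKM, against 76.5 FPKM in PAS_chr1-4_0291 (256 nt) before it and 125 FPKM in PAS_chr1-4_0293 after it. PGI1 had 151 FPKM, against 106 FPKM in PAS_chr3_0455 (312 nt) and 120 FPKM in PAS_chr3_1191. PFK1 had 153 FPKM, against 140 FPKM in PAS_chr2-1_0401 and 94.6 FPKM in PAS_chr2-1_0403 (345 nt). Against the nearest genes of at least 500 nt, the log2 difference was 0.057 for PFK1, 0.16 for PGK1, 0.22 for PGI1 and 0.25 for GPM1. For GPM1 the low gene was the one after it: GPM1 had 158 FPKM, against 140 FPKM in PAS_chr3_0825 and 95.5 FPKM in PAS_chr3_0829 (369 nt).

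FBA1-1, TPI1, ENO1 and CDC19 had smaller differences from the mean of their neighbours, from 0.022 (FBA1-1) to 0.19 (ENO1) on the log2 scale. TPI1 had 174 FPKM, between PAS_chr3_0950 at 147 FPKM and PAS_chr3_0952 at 186 FPKM, so the glycolysis gene with the highest signal was next to a gene of 681 nt with still more. FBA1-1 had 153 FPKM, between PAS_chr1-1_0071 at 147 FPKM and PAS_chr1-1_0470 at 155 FPKM. FBA1-1 and TPI1 were the 2 of the 10 that were not higher than both neighbours. ENO1 had 157 FPKM, against 143 FPKM in PAS_chr3_0080 and 132 FPKM in PAS_chr3_0083, a ratio of 1.14 to their mean. CDC19 had 155 FPKM, against 153 FPKM in PAS_chr2-1_0768 and 139 FPKM in PAS_chr2-1_0770. CDC19 was also the 1 gene of the 10 whose annotation overlaps that of a neighbour, and the share over all genes was not computed.

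**Figure D3:**
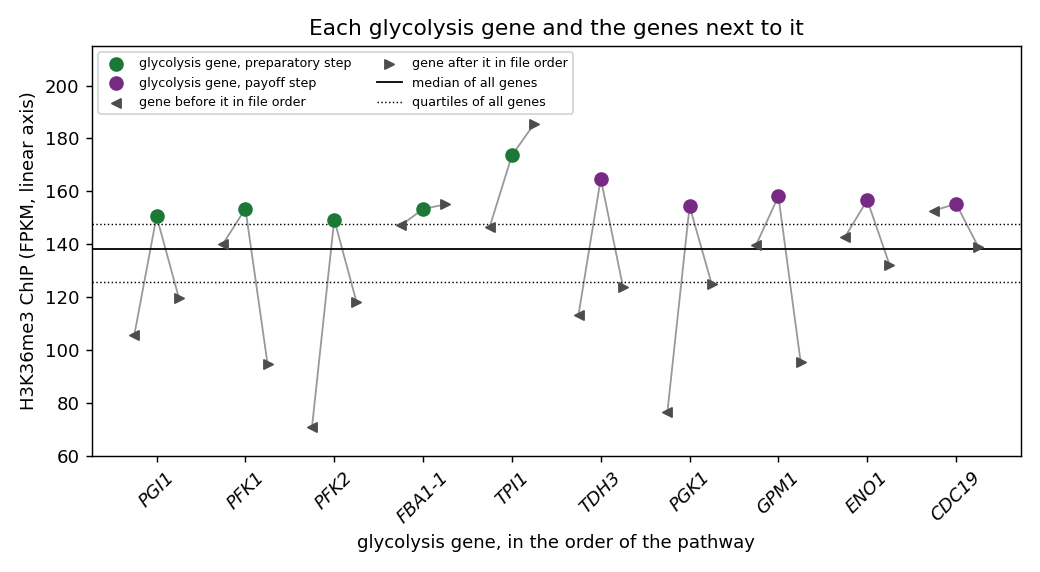
H3K36me3 ChIP signal (FPKM, linear axis) of each glycolysis gene (circles; green, preparatory; purple, payoff) and of the gene before and after it in file order (triangles), joined by a grey line. The solid line is the median of all genes and the dotted lines their quartiles; 8 of the 10 circles lie above both of their triangles, FBA1-1 and TPI1 being the exceptions.

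Over a wider stretch the glycolysis genes still ranked high, and the genes around them had a median close to that of all genes. The 100 genes up to 5 places away had a median of 139 FPKM, against 155 FPKM for the glycolysis genes themselves. Of these 100 genes, 53 were above the median of all genes. Among the 11 genes of its stretch, each glycolysis gene was first in 4 cases (PGI1, TDH3, PGK1 and ENO1), against 8.78% of all genes. They were among the first 3 in 9 cases, against 27.4% of all genes, PFK2 being the exception. The share among genes with equally high signal was not computed, so these ranks cannot be set apart from the level itself. By place, the medians of the 10 genes directly before and directly after were 140 and 124 FPKM. The means at these places were in the other order, 124 FPKM before and 129 FPKM after. Farther out no side was steadily lower: the medians were 139.5 FPKM 2 places before and 147 FPKM 2 places after, and 142 FPKM 3 places before and 127 FPKM 3 places after. Of the genes directly before, 6 of 10 were above the median of all genes, and of those directly after, 3 of 10. With no strand given for these genes in the tables used here, before and after are not upstream and downstream.

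**Figure D4:**
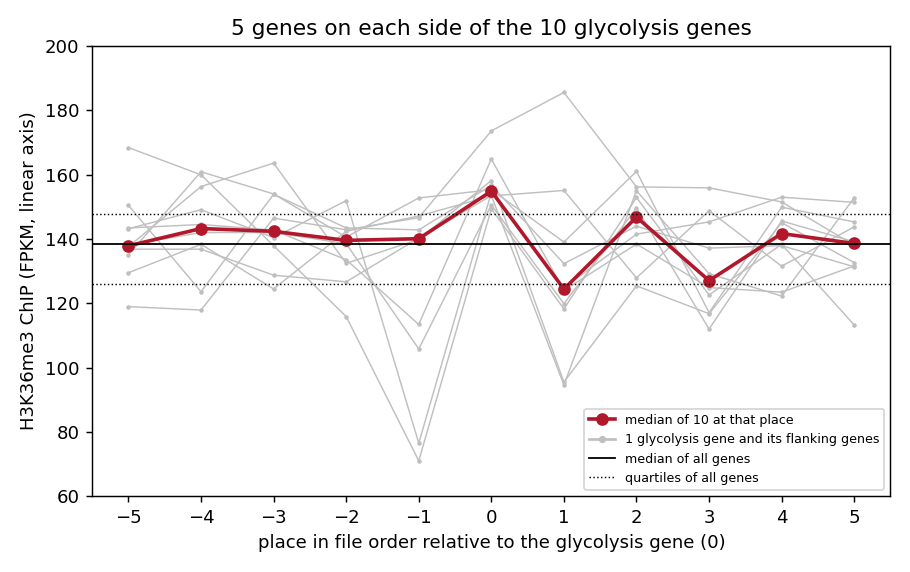
H3K36me3 ChIP signal (FPKM, linear axis) at each place in file order from 5 genes before to 5 genes after a glycolysis gene (place 0); grey lines are the 10 stretches and the red line is the median of 10 values at each place. The red line stands at 155 FPKM at place 0, at 140 FPKM 1 place before and at 124 FPKM 1 place after; the solid black line is the median of all genes and the dotted lines their quartiles.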

How the data were processed

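ChIP-seq of H3K36me3 was performed by the submitters. Per the labels' protocols, cells were fixed with formaldehyde and the chromatin was sonicated. Per the submitters' processing notes, which assign no roles, the tools were Bowtie2, MACS2, deepTools, SAMtools, Trimmomatic 0.39 and FastQC 0.12.1. The authors deposited FPKM per gene in 1 column whose name, per the file headers, has no replicate number; the build, annotation, counting tool and any pooling of libraries were not given in the sources used here. Depth is unknown. A search over scaling totals looked for a common step of 1 read in 300 genes with the lowest FPKM times length. At the best total 18.3% of those 300 genes, on which it was chosen, lay within 0.05 of whole numbers. Over all genes the share was 9.66%, and chance alone gives 10%. The search may be too coarse for genes with many reads, so it cannot show that there is no step.

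All 5040 locus tags matched RefSeq's gene table (assembly ASM2700v1), whose order is that of the file. It was used for length, chromosome and neighbours, and no coordinate is given. FPKM times these lengths summed to 100.1% of the total expected if all fragments fell in these genes. Adjacent genes were the rows before and after on the same chromosome. Log2 values used a pseudocount of 1. The step from neighbours was the log2 value of a gene minus the mean log2 value of both. The named genes were all 10 members and their neighbours. Members, lists and the classes compared were chosen with earlier results of these data known. Other pathway genes planned by product name were not used, since the tables give no product. Calculations used Python 3.11.15, numpy 2.4.6, pandas 2.3.3, scipy 1.17.1 and matplotlib 3.10.9. They were tested on the deposited values shuffled over the genes, with a known rise planted in 10 of them.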

Additional observations from a re-analysis of the deposited data

How the results depend on the processing

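No paired analysis was possible because only 1 value per gene was used, and leaving out each replicate could not be run for the same reason. The difference of the glycolysis median from that of all genes, 0.16 on the log2 scale, ran from 0.15 to 0.18 under pseudocounts of 0 and 10, genes of at least 500 nt, the 200 genes nearest in length, without TDH3, and, added after the data were examined, the same chromosome or leaving out each of the 10 in turn. The filter at 1 FPKM removed no gene. The count of genes more than 10% above the median, 8, was 10 at a threshold of 5%, 1 at 25% and 7 against genes of like length. The median difference from adjacent genes, 0.41, was 0.21 with 5 genes on each side and 0.18 with neighbours of at least 500 nt, a setting that replaces the 4 short neighbours. The count of genes higher than both neighbours, 8, was 7 with neighbours of at least 500 nt. Against the median of 5 genes on each side, 10 were higher. The ratio of the highest to the lowest of the 10 genes, 1.16, was 1.21 relative to genes of like length and 1.10 without TPI1, a setting added after the data were examined. The difference of preparatory minus payoff genes, -0.031, was -0.044 without TPI1. Depth is unknown, so counting error could not be set apart.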
